A study of Mus musculus with 41 samples.

Results

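*Cdh1* and *Cdh2*, the genes of E-cadherin and N-cadherin, were 2 of the 54 mouse target genes measured by TaqMan quantitative PCR in tissue explanted from 41 mice. They were taken by name from the table of threshold cycles (Ct), and both rows were present. All mice were female, of the immunodeficient NSG strain, and the labelled tissue was skin. The 6 groups were sham controls at 1 week (n = 7) and 6 weeks (n = 6), mice with an electrospun PLACL nanomesh (P) at 1 week (n = 6) and 6 weeks (n = 8), and mice with this mesh and human endometrial mesenchymal stem/stromal cells (P+eMSC) at 1 week (n = 7) and 6 weeks (n = 7). The eMSC were SUSD2+ cells isolated from the endometrium of women and labelled with mCherry. The mesh lay in pockets under the abdominal skin. Tissue next to the mesh was sampled rather than the cells inside it, and some animals had also served in an earlier study. The age of the mice, and which cell donor was given to which mouse, are not given in the sources used here. Whether the mouse assays also amplify human transcripts is likewise not given.

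Cadherins are calcium-dependent adhesion proteins that join like cells at adherens junctions and bind catenins, and through them the actin skeleton, inside the cell. E-cadherin holds together epithelial cells, in skin the keratinocytes of the epidermis and hair follicles, and Langerhans cells carry it as well. N-cadherin is typical of mesenchymal, muscle, neural and endothelial cells, and a change from E- to N-cadherin is known as a hallmark of epithelial to mesenchymal transition. In a bulk explant, fewer cells of a type and less RNA per cell cannot be told apart.

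The level of a gene is given here as the Ct of 18S ribosomal RNA minus the Ct of the gene. This is a log2 scale on which 1 unit stands for a 2-fold difference if every cycle doubles the product, and on which a value nearer 0 means more transcript. Each assay has its own efficiency, so the level of *Cdh1* in a mouse cannot be read as an amount relative to its *Cdh2*. Only changes of their difference between mice can be compared.

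*Cdh1* spanned 13.04 log2 units across the mice, from -18.99 in mouse 53 to -5.95 in mouse 2351. *Cdh2* spanned 6.32 log2 units, from -17.47 in mouse 78 to -11.14 in mouse 2269. The SD between mice of the same group, pooled over groups, was 3.14 for *Cdh1*, the 3rd widest of the 54 genes, and 1.53 for *Cdh2*, which stood 46th. The median gene had a within-group SD of 2.01. Both cadherins were detected in 40 of 41 mice. Mouse 52 of the P group at 6 weeks gave no Ct for 31 genes, both cadherins among them, and had the highest 18S Ct of all mice, at 7.79 against a median of 6.82. It was left out of the cadherin values below unless stated. For genes with a Ct in it, among them *Itgb1*, *Tgfb3*, *Tgfbr1*, *Timp2*, *Timp3* and *Mmp2*, it was kept. For these genes P at 6 weeks held 8 mice. The deposited table holds Ct values without counts of molecules, so the precision rests on the number of mice alone.

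*Cdh1*, the epithelial cadherin, had its highest group medians in the sham mice. In sham mice at 1 week its level ran from -16.16 to -6.89, with a median of -8.78. In P mice at 1 week it ran from -15.34 to -7.54, with a median of -10.88. In P+eMSC mice at 1 week it ran from -14.82 to -7.16, with a median of -9.97. The 3 groups overlapped over most of their span at this time. At 6 weeks, sham mice ran from -14.03 to -6.90 (median -8.99). P mice ran from -18.99 to -8.63 (median -10.51), of which 5 of 7 lay between -10.54 and -9.51. P+eMSC mice ran from -15.39 to -5.95 (median -9.15) and included the highest *Cdh1* value of the data. In order of the medians, both sham groups came first, then P+eMSC at 6 weeks and at 1 week, then P at 6 weeks and at 1 week. Each neighbouring pair in this order was at most 0.82 apart, less than the SD of either group.

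*Cdh2*, the mesenchymal cadherin, varied less between mice. At 1 week it ran from -15.73 to -11.14 in sham mice (median -13.45), from -15.56 to -12.16 in P mice (median -13.77) and from -17.47 to -11.21 in P+eMSC mice (median -13.99). At 6 weeks it ran from -13.83 to -11.30 in sham mice (median -13.49), from -17.12 to -13.20 in P mice (median -13.96) and from -15.10 to -11.20 in P+eMSC mice (median -12.99). The groups overlapped at both times. The order of the medians began with P+eMSC at 6 weeks, followed by sham at 1 week, sham at 6 weeks, P at 1 week, P at 6 weeks and P+eMSC at 1 week. No neighbouring pair was further apart than 0.46, again less than the SD of either group.

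**Figure D1:**
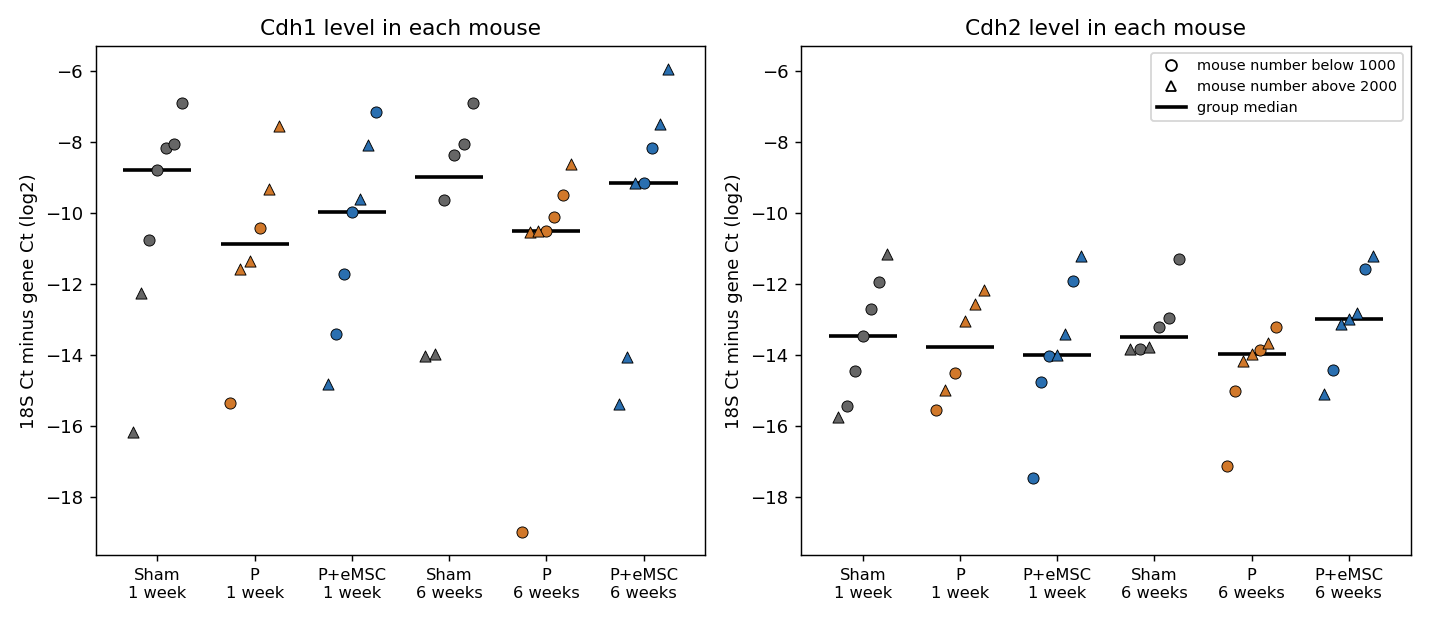
Level of *Cdh1* (left) and *Cdh2* (right) in each mouse, as 18S Ct minus gene Ct on a log2 scale, by group. Each point is 1 mouse (circles, mouse numbers below 1000; triangles, above 2000) and bars are group medians; *Cdh1* spans 13.04 units and *Cdh2* 6.32, and all groups overlap for both genes.

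The effect of the mesh itself was examined by comparing P with sham mice. At 6 weeks, the 7 P mice with a *Cdh2* Ct had levels of -17.12, -15.02, -14.17, -13.96, -13.87, -13.65 and -13.20. The 6 sham mice had levels of -13.83, -13.82, -13.76, -13.22, -12.94 and -11.30. Thus 5 of 7 P mice lay below every sham mouse, and 6 of 7 lay below the sham median. The shift, the median of all differences between a mouse of one group and a mouse of the other, was -0.84 log2 units, a 1.79-fold lower level, with an exact 96.5% interval of -3.29 to 0.020. The exact Mann-Whitney p-value was 0.0513, which equals the threshold used for a call here, and the p-value adjusted over all 54 genes was 0.198. In the same comparison 14 of 54 genes, 25.9%, were called lower in P and none higher, and the median shift of all 54 genes was -0.83. This share and median rest partly on mouse 52. Genes with a Ct in it, among them *Timp2*, *Timp3*, *Tgfb3* and *Itgb1*, were compared over 8 P mice, and *Cdh2* over 7. When each mouse was expressed relative to the median of the 23 genes detected in every mouse in place of 18S, the *Cdh2* shift was -0.049 (exact Mann-Whitney p = 0.836). These 23 genes include genes called lower in P here, among them *Timp2*, *Timp3*, *Tgfb3* and *Itgb1*. This reference therefore reduces or removes any shift shared with them, and the source of such a shift was not tested. The call was also lost on leaving out P mouse 53, 438, 121, 2267 or 2307 or sham mouse 408, 401 or 122, with an exact p of up to 0.106. With mouse 52 placed just below the lowest *Cdh2* level, the shift was -1.10 (exact Mann-Whitney p = 0.0293). This placement adds a lowest P mouse by rule, so it moves the test toward a call whatever the true level. It is therefore no support for the call.

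*Cdh1* was not called in this comparison. Of the 7 P mice, 6 lay below the sham median, and the shift was -1.30 with an exact 96.5% interval of -3.64 to 3.52 (exact Mann-Whitney p = 0.366, adjusted p = 0.534). At its lower end this interval reached a 12.5-fold lower level in P, and it also held higher levels. Relative to the panel median the *Cdh1* shift was 0.13. Without mouse 2356, labelled P at 6 weeks but given in the deposited fold changes relative to the 1-week sham mice, so that its week is in doubt, it was -1.91 (exact Mann-Whitney p = 0.310). The shift took opposite signs in mice of low and of high number. The labels number the mice either below 1000 or above 2000 without saying what the numbers stand for. Among mice numbered below 1000 the *Cdh1* shift of P against sham at 6 weeks was -2.30 (4 against 4 mice), and among mice numbered above 2000 it was 3.51 (3 against 2). For *Cdh2* the shift was -1.85 and -0.17 in the same mice, and a permutation of the rank sum within each series gave an exact p of 0.0629.

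At 1 week neither cadherin was called between P and sham, where 3 of 54 genes (5.56%) were called lower. The shift was -0.99 for *Cdh1* (exact Mann-Whitney p = 0.628, adjusted p = 0.917) and -0.17 for *Cdh2* (exact Mann-Whitney p = 0.836, adjusted p = 0.981). The *Cdh1* shift was -4.05 among mice numbered below 1000 (2 against 5) and 4.64 among those above 2000 (4 against 2).

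The effect of the cells was examined by comparing P+eMSC with P. Neither cadherin was called at 6 weeks, where 10 of 54 genes (18.5%) were called higher with eMSC. Genes with a Ct in mouse 52, among them *Tgfb3*, *Timp3* and *Itgb1*, were compared with 8 P mice, and the cadherins with 7. For *Cdh1*, 5 of 7 P+eMSC mice lay above the P median and 2 lay far below it, and the shift was 1.37 with an exact 96.2% interval of -3.93 to 4.56 (exact Mann-Whitney p = 0.209, adjusted p = 0.417). For *Cdh2* likewise 5 of 7 lay above it (exact Mann-Whitney p = 0.0973, adjusted p = 0.277). The *Cdh2* shift of 1.16, a 2.23-fold higher level, had an exact 96.2% interval of -0.46 to 2.77. It stood beside a median shift of 1.15 over the 54 genes and was -0.049 relative to the panel median, where that of *Cdh1* was 0.42. The panel median again includes genes called in the comparison, among them *Tgfb3*, *Timp3* and *Itgb1*. With mouse 52 placed just below the lowest level, the shift was 1.99 for *Cdh1* (exact Mann-Whitney p = 0.121) and 1.76 for *Cdh2* (exact Mann-Whitney p = 0.0541). Here too the placement moves the test toward a call by rule. Without P mouse 2356 it was 1.68 for *Cdh1* (exact Mann-Whitney p = 0.138) and 1.27 for *Cdh2* (exact Mann-Whitney p = 0.101). The *Cdh2* shift passed the threshold without P+eMSC mouse 60 or 2210 (exact Mann-Whitney p = 0.0350 and 0.0221). Within mice numbered below 1000 and above 2000 the *Cdh2* shift was 1.96 and 0.97, and the *Cdh1* shift was 1.66 and 1.14. At 1 week the shifts were 0.41 for *Cdh1* (exact Mann-Whitney p = 0.945) and 0.37 for *Cdh2* (exact Mann-Whitney p = 0.836), and no gene of the panel was called (0%).

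P+eMSC and sham mice could not be separated by either cadherin. At 6 weeks the shift was 0.092 for *Cdh1* and 0.18 for *Cdh2*, with exact 96.5% intervals of -5.69 to 4.89 and -1.50 to 2.02. At 1 week it was -0.94 for *Cdh1* and -0.061 for *Cdh2*. The exact Mann-Whitney p-values of these 4 tests were between 0.710 and 1, and 0% of the panel was called at either time. The *Cdh1* shift against sham again differed by mouse number, being -0.45 below 1000 and 4.86 above 2000 at 6 weeks (2 against 4 and 5 against 2 mice).

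Time was compared within each treatment. Between 1 and 6 weeks the *Cdh1* shift was 0.50 in P, 0.82 in P+eMSC and -0.00084 in sham mice. The value in P was -0.096 without mouse 2356. That of *Cdh2* was -0.73 in P, 0.72 in P+eMSC and 0.56 in sham mice. None of these 6 tests was called, with exact Mann-Whitney p-values between 0.456 and 1, beside 0% of the panel in P, 0% in P+eMSC and 3.7% in sham mice. Whether a treatment effect differed between the times was tested with limma over all mice with a Ct. The change of the P+eMSC minus P effect from 1 to 6 weeks was 1.11 (SE 2.27, adjusted p = 0.663) for *Cdh1* and 1.42 (SE 1.24, adjusted p = 0.504) for *Cdh2*. That of the P minus sham effect was -0.33 (SE 2.31, adjusted p = 0.987) for *Cdh1* and -1.03 (SE 1.26, adjusted p = 0.736) for *Cdh2*. None of the 6 interactions of the cadherins was below an adjusted or an unadjusted p of 0.05, beside 0% of the panel in each. The median interaction of the 54 genes was 1.70 for P+eMSC minus P, with all 54 above 0. It was -1.35 for P minus sham, with 4 above 0, and 0.38 for P+eMSC minus sham, with 42 above 0.

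**Figure D2:**
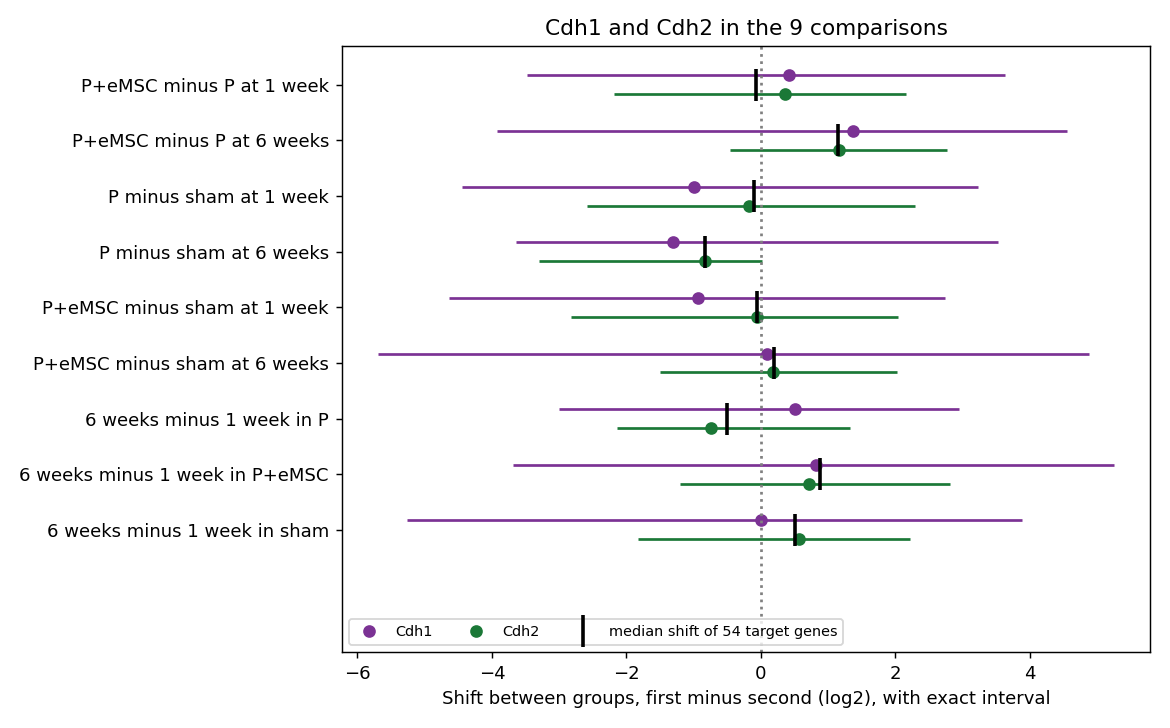
Shift of *Cdh1* (purple) and *Cdh2* (green) in the 9 comparisons, first group minus second, on a log2 scale. Points are medians of all differences between mice of the groups, horizontal lines exact intervals of at least 95%, and black ticks the median shift of all 54 target genes; at 6 weeks the *Cdh2* point lies on the tick, at -0.84 beside -0.83 for P minus sham and at 1.16 beside 1.15 for P+eMSC minus P. In P at 6 weeks the ticks include mouse 52 for genes with a Ct in it, and the cadherin points do not.

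The difference between the cadherins, *Cdh1* level minus *Cdh2* level, does not depend on 18S. It split the 40 mice into unequal sets. In 30 mice it was between 3.04 and 6.28, in 10 mice it was between -1.86 and 1.22, and no mouse lay in the 1.82 units between. The next widest gap between neighbouring mice was 0.999. Mice with a low difference were found in all 6 groups. They were 2 of 7 sham, 2 of 6 P and 1 of 7 P+eMSC mice at 1 week, and 2 of 6 sham, 1 of 7 P and 2 of 7 P+eMSC mice at 6 weeks. The group medians of the difference were close, from 3.42 in sham mice at 6 weeks to 4.68 in sham mice at 1 week. The shifts of the difference in the 9 comparisons were between -0.96 (P minus sham at 1 week) and 0.52 (6 weeks minus 1 week in P+eMSC), against pooled SDs of 1.80 to 2.81, so none exceeded the spread between mice. At 6 weeks the shift of P+eMSC against P was 0.22 and that of P against sham was 0.12. Without P mouse 2356 they were 0.76 and 0.064.

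Of the 10 mice below the gap, 9 were among the 10 mice with the lowest *Cdh1*, and 4 were among the 10 with the lowest *Cdh2*. *Cdh1* is a term of the difference and varied more than *Cdh2*, so these counts do not tell which gene carries the split. Mouse 2269, a sham mouse at 1 week, had a *Cdh1* level of -12.24 together with the highest *Cdh2* level of all mice, -11.14. Mouse 78, a P+eMSC mouse at 1 week, had the lowest *Cdh2* level, -17.47, with a *Cdh1* level of -13.41, and its difference of 4.06 was like that of most mice.

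Low differences were also unevenly spread over mouse numbers. They occurred in 8 of 19 mice numbered above 2000 and in 2 of 21 numbered below 1000. In the sham mice there was no overlap. All 4 sham mice numbered above 2000 had a difference between -1.10 and -0.14, and all 9 sham mice numbered below 1000 had one between 3.24 and 6.28. Their *Cdh1* levels were -16.16 to -12.24 and -10.77 to -6.89, while their *Cdh2* levels, -15.73 to -11.14 and -15.44 to -11.30, covered the same span. Their *Fgfr3* levels were nearly separated too, at -15.18 to -11.04 and -11.67 to -7.06. Their *Arg1* levels overlapped, at -17.50 to -8.77 and -14.78 to -8.79. How many other genes separate these sham mice was not counted, so the split cannot be read as particular to the cadherins. Among mice with a mesh the difference was not split in this way. Their difference ran from -0.93 to 5.51 in the 15 mice numbered above 2000 and from -1.86 to 5.28 in the 12 numbered below 1000. In mice numbered above 2000 the shift of the difference from sham was 4.32 for P at 1 week, 3.84 for P at 6 weeks, 3.88 for P+eMSC at 1 week and 3.86 for P+eMSC at 6 weeks, in each case against 2 sham mice. In mice numbered below 1000 it was -3.30, -1.63, -0.81 and -0.19. What the numbers mark, and their part in these values, was not tested.

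**Figure D3:**
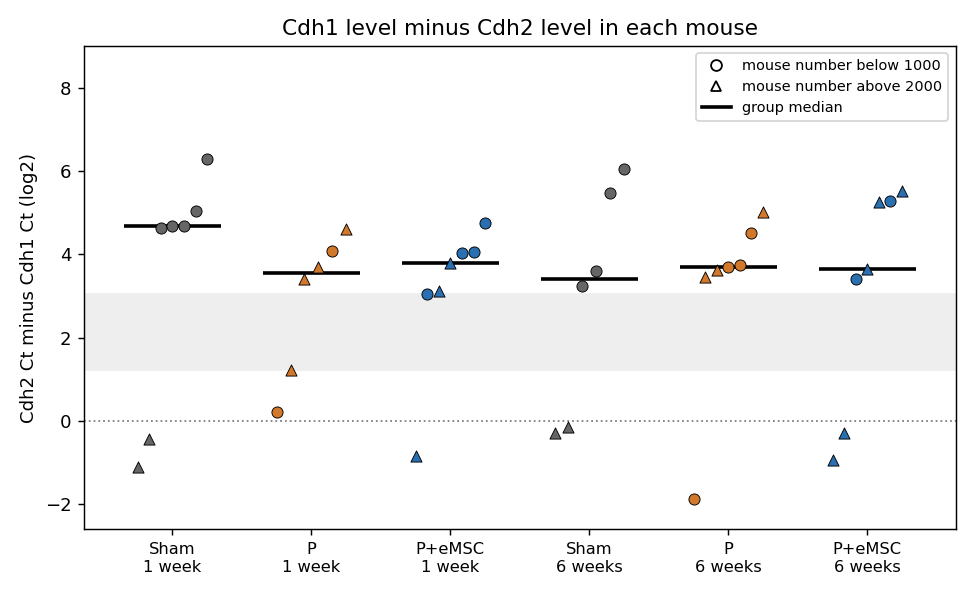
*Cdh1* level minus *Cdh2* level in each mouse, equal to the *Cdh2* Ct minus the *Cdh1* Ct (log2), by group. Each point is 1 mouse (circles, mouse numbers below 1000; triangles, above 2000), bars are group medians, the dotted line is 0 and the grey band is the empty range from 1.22 to 3.04; all 4 sham mice numbered above 2000 lie below the band.

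Within each of the groups, *Cdh1* and *Cdh2* had a positive correlation coefficient with 18S as reference, but no group passed the test. Pearson's r between their levels ran from 0.44 (sham, 1 week) to 0.94 (P, 6 weeks) and Spearman's rho from 0.43 to 0.86, each over 6 or 7 mice. In exact permutation tests adjusted over the 6 groups, the smallest p-values were 0.108 for r and 0.0994 for rho. Without the 2 mice farthest from the median *Cdh1* of their group, r ran from 0.21 to 0.92. Both levels contain the 18S Ct of the mouse, but its SD over all mice was only 0.28. The SD was 2.98 for the *Cdh1* level and 1.51 for the *Cdh2* level. Relative to the panel median, which also subtracts variation shared by the panel genes, r ran from 0.095 to 0.77. Without the 2 farthest mice it then ran from -0.22 to 0.77 and was negative in P (-0.22) and P+eMSC mice (-0.081) at 6 weeks.

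Over all 40 mice and after centring each gene on its group medians, the genes whose levels were most like *Cdh1* were *Fgfr3* (Spearman's rho 0.86), *Arg1* (0.76), *Cdh2* (0.67), *Col3a1* (0.66) and *Cxcl12* (0.66). *Fgfr3* encodes a fibroblast growth factor receptor that keratinocytes express. *Arg1* encodes arginase, used as a marker of alternatively activated macrophages. The median rho of *Cdh1* with the other 53 genes was 0.51. Of the 10 mice with the lowest *Cdh1*, 8 were among the 10 with the lowest *Fgfr3* and 6 among the 10 with the lowest *Arg1*. *Fgfr3* also led relative to the panel median, with a rho of 0.77. The genes most like *Cdh2* were *Ccl11*, *Mmp2*, *Cxcl12*, *Vcam1* and *Ang2*, with rho of 0.91, 0.91, 0.91, 0.91 and 0.89, beside a median of 0.73 over the other 53 genes. These encode the chemokines eotaxin and stromal cell-derived factor 1, a gelatinase, a vascular adhesion receptor and a ligand of the vessel receptor Tie2. This order was not kept relative to the panel median. With that reference their rho with *Cdh2* was between 0.25 and 0.50, and *Arg1* (0.54), *Cxcl9* (0.54), *Cxcl12* (0.50) and *Cdh1* (0.50) came first. *Ccl11*, *Mmp2*, *Cxcl12* and *Arg1* are themselves among the genes of the panel median. For these the change of rho cannot be read as an effect of 18S alone. *Vcam1* and *Ang2*, which are not among them, had a rho of 0.37 and 0.36. These values are descriptions over mice that share their 18S Ct and RNA sample.

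**Figure D4:**
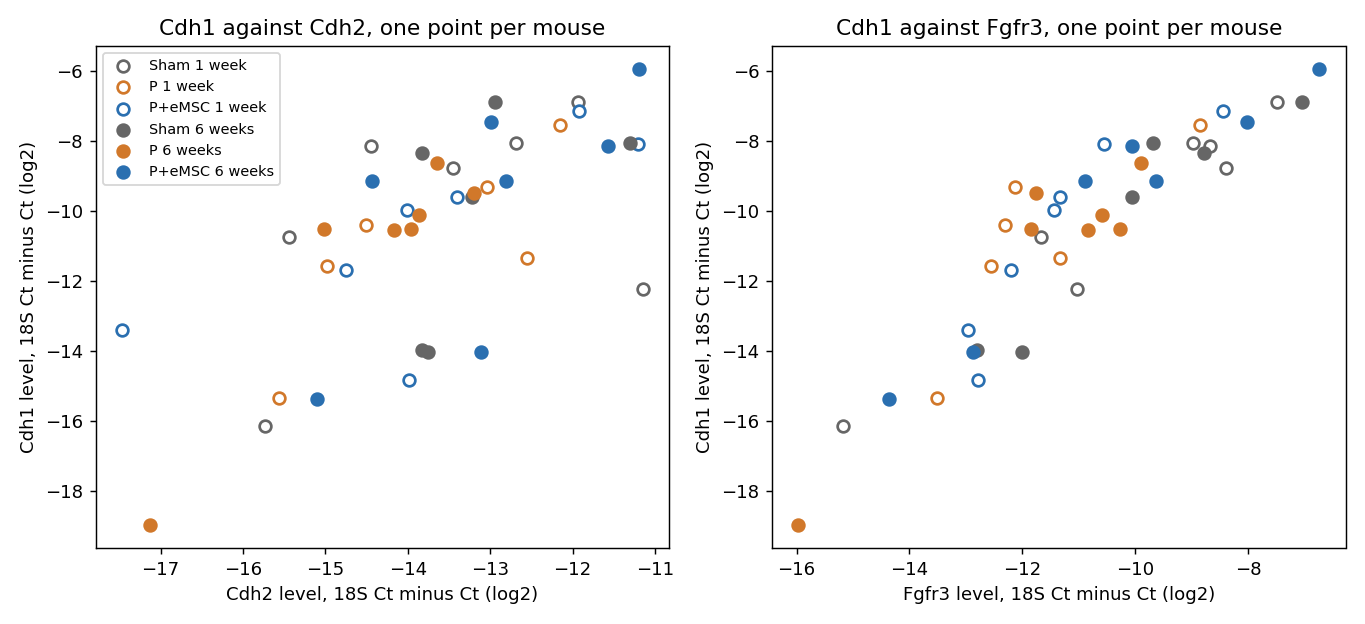
*Cdh1* level against the level of *Cdh2* (left) and of *Fgfr3* (right), all as 18S Ct minus gene Ct on log2 scales. Each point is 1 mouse, coloured by treatment, open at 1 week and filled at 6 weeks. The rho after centring on group medians was 0.67 with *Cdh2* and 0.86 with *Fgfr3*, and 8 of the 10 mice with the lowest *Cdh1* are among the 10 with the lowest *Fgfr3*.

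*Cdh1* and *Fgfr3* were the 2 measured genes taken here as epithelial markers, and both were detected in 40 of 41 mice. Their summed level had group medians between -10.21 (P, 1 week) and -7.58 (sham, 1 week), and ran within single groups over ranges as wide as -15.80 to -8.13 (P, 6 weeks). *Fgfr3* itself was not called in any comparison. At 6 weeks its shift was -1.32 for P minus sham (exact Mann-Whitney p = 0.295) and 0.95 for P+eMSC minus P (exact Mann-Whitney p = 0.383). The summed level of the mesenchymal markers *Col1a1*, *Col3a1*, *Col6a1* and *Cdh2* had medians between -2.73 (P, 6 weeks) and -1.30 (P+eMSC, 6 weeks). That of the myeloid markers *Ccr1*, *Ccr2*, *Il1b* and *Mrc1* had medians between -7.38 (P, 6 weeks) and -6.30 (sham, 6 weeks). In P at 6 weeks the mesenchymal and myeloid sums included mouse 52, which has no *Cdh2* Ct, and so covered 8 mice. These sums add values of different assays and follow the genes of lowest Ct, in the mesenchymal sum *Col1a1* and *Col3a1* (median levels -3.01 and -3.68) far more than *Cdh2* (-13.70), so they are no measure of relative amounts. The part of tissue composition in the cadherin values was not tested.

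The cadherins were set beside gene groups with related roles at 6 weeks, to be read against the 25.9% of all 54 genes called lower in P than in sham mice and the 18.5% called higher in P+eMSC than in P. Of the other adhesion receptors, *Itgb1*, *Cd44*, *Icam1* and *Vcam1*, 1 of 4 was called lower in P than in sham mice and none higher, with a median shift of -0.31. This was *Itgb1*, the beta 1 integrin that binds collagen and fibronectin, at -1.64 (exact Mann-Whitney p = 0.00466, adjusted p = 0.0551). *Itgb1* was also the 1 of 4 called higher in P+eMSC than in P, at 1.68 (exact Mann-Whitney p = 0.0140, adjusted p = 0.158). The transforming growth factor list held *Tgfb1*, *Tgfb2* and *Tgfb3*, known inducers of the switch between cadherins, and the receptor gene *Tgfbr1*. Of these, 3 of 4 were called lower in P than in sham, *Tgfb3* at -2.07, *Tgfb2* at -1.31 and *Tgfbr1* at -1.04. In P+eMSC against P, 2 of 4 were called higher, *Tgfbr1* at 1.39 and *Tgfb3* at 2.24. None of the 5 mesenchymal collagen genes was called in either comparison, with median shifts of -0.84 and 1.18. Of the 7 matrix proteases and inhibitors, 3 were called lower in P than in sham, all of them tissue inhibitors of metalloproteinases, with *Timp3* at -1.84 and *Timp2* at -1.70, and 2 were called higher in P+eMSC than in P, *Timp3* at 1.90 and *Mmp2* at 1.41. The P mice are shared by these comparisons, so a low value in P enters both. For *Itgb1*, *Tgfb3*, *Tgfbr1*, *Timp2*, *Timp3* and *Mmp2* the P mice included mouse 52, which has no cadherin value.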

How the data were processed

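Total RNA from 41 explants was reverse transcribed, preamplified for 14 cycles and run on a Fluidigm dynamic array with mouse TaqMan assays. The authors obtained Ct values with the Fluidigm software, and the deposited table holds these non-normalized Ct values on a log2 scale of amount, with 999 or null for undetected. The deposited fold changes are linear ratios made by the authors with 18S as reference and the sham mice as calibrator. They matched the Ct values within 0.01 log2 units in all mice for *Cdh1* and in all but 1 for *Cdh2*. The exception, mouse 2356 of P at 6 weeks, was set against the 1-week sham mice, so that its week is in doubt. It was kept as labelled, and values without it are given for part of the comparisons. The deposited ratios served only as an alternative.

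Here each level was computed as 18S Ct minus gene Ct. Groups were taken from the sample titles. The 9 comparisons were made for all 54 genes with an exact two-sided Mann-Whitney test (at least 4 values per group) and Benjamini-Hochberg adjustment over the 54 genes, and a gene was called at p ≤ 0.0513, the threshold used in the study's methods. The shift is the Hodges-Lehmann estimate with its exact interval. Interactions were fitted with limma 3.58.1 (R 4.3.3) and called at an adjusted p below 0.05. All other steps ran in Python 3.11.15 with scipy 1.17.1, pandas 2.3.3, numpy 2.4.6 and, for figures, matplotlib 3.10.9. Scripts were tested on simulated data. No p-value was computed for the difference between the cadherins.

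The cadherins, the gene lists and the alternatives were chosen with earlier results of these data known. Named besides the cadherins are the 5 genes most like each over at least 30 mice, and the 2 genes of each list with the smallest p in a comparison described. *Cxcl9* was named after its values were seen. Of the list genes, *Itgb2*, *Itga2* and *Tgfa*, and of the markers *Itgb2*, *Cd86* and *Tgfa*, were not analysed here. Each mouse was 1 sample, and no mouse number was shared by groups, so no pairing applied. Alternatives were the panel median (23 genes detected in every mouse) or no reference, a value 0.01 below the lowest for undetected genes, other tests and thresholds, a permutation within the mouse number series, the deposited ratios, and leaving out mice.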

Additional observations from a re-analysis of the deposited data

Results flagged for a closer look

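In 18 sets of values (each cadherin and their difference in 6 groups), 4 held a mouse far from the others of its group, where chance alone gives about 1 in 20. The sets are not independent, because the difference is computed from both cadherin levels. The count of 4 therefore cannot be read as an excess over this rate. Mouse 53, given P for 6 weeks, had a *Cdh1* level of -18.99, and 81.5% of its group's range lay between it and the next mouse. Its difference between *Cdh1* and *Cdh2*, -1.86, was flagged as well. Mouse 401 of the sham group at 6 weeks had a *Cdh2* level of -11.30, above the rest of its group. Mouse 2350 of the P+eMSC group at 1 week had a difference of -0.83, below the rest of its group. No interaction of a cadherin with time passed an adjusted p of 0.05 in limma, so no difference between time points was flagged.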

How the results depend on the processing

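The only call, *Cdh2* lower in P than in sham mice at 6 weeks, kept its direction throughout but missed the threshold with the panel median as reference (-0.049), in limma (-1.28), and, at an unchanged -0.84, at p below 0.05, after adjustment and in the permutation within number series. It held with no reference, in the permutation of means and without mice 52 and 2356. It also passed with undetected values set low, but this places P mouse 52 lowest by rule and cannot count as support. On leaving out 1 mouse it ran from -0.99 to -0.43 and was kept in 5 of 13 cases. It was lost without P mice 53, 438, 121, 2267 or 2307, or sham mice 408, 401 or 122. *Cdh2* in P+eMSC against P at 6 weeks ran from 0.92 to 1.495. Shifts that were not called often changed sign. With the panel median, *Cdh1* was -0.24 for P+eMSC minus P at 1 week, 0.13 for P minus sham at 6 weeks and -0.32 for P+eMSC minus sham at 6 weeks, and *Cdh2* was -0.057 and -0.049 for P+eMSC minus P at 1 and 6 weeks, 0.018 for P minus sham at 1 week, 0.060 and -0.088 for P+eMSC minus sham at 1 and 6 weeks, and -0.17 and -0.14 for time in P+eMSC and sham. The *Cdh1* interactions became -0.067 (P+eMSC minus P) and 0.49 (P minus sham). With no reference, *Cdh2* was 0.058 and -0.20 for P+eMSC minus sham at 1 and 6 weeks, and *Cdh1* was -0.23 in the latter and 0.24 for time in sham. By means and in limma, *Cdh2* was -0.020 for P+eMSC minus P at 1 week, and *Cdh1* was -0.33 for time in P. The latter was -0.11 with undetected values set low and -0.10 without mice 52 and 2356. On leaving out 1 mouse, P+eMSC minus P at 1 week ran from -0.37 to 1.25 for *Cdh1* and -0.30 to 0.73 for *Cdh2*, *Cdh2* in P minus sham at 1 week from -0.58 to 0.15, P+eMSC minus sham at 1 week from -1.32 to 0.026 for *Cdh1* and -0.63 to 0.45 for *Cdh2*, *Cdh1* in P+eMSC minus sham at 6 weeks from -0.34 to 0.53, *Cdh1* for time in P from -0.10 to 0.83, and time in sham from -0.84 to 0.57 for *Cdh1* and -0.25 to 0.66 for *Cdh2*. The causes were not tested. The panel median contains genes called between groups at 6 weeks, so it reduces or removes shifts shared with them. The shifts of the cadherin difference moved by less than their SD with undetected values set low and on leaving out mice. Within the mouse number series they moved by more, from -0.96 to 4.32 for P minus sham at 1 week and from 0.12 to 3.84 at 6 weeks among mice numbered above 2000. A *Gapdh* reference was not run, since no *Gapdh* row was used here. No paired analysis was possible because the groups share no mouse numbers.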

Other observations

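The 10 mice below the gap in the cadherin difference were as follows, in ascending order. Mouse 53 (P, 6 weeks) had a difference of -1.86, with *Cdh1* at -18.99, *Cdh2* at -17.12 and *Fgfr3* at -15.97. Mouse 2269 (sham, 1 week) had a difference of -1.10, with *Cdh1* at -12.24, *Cdh2* at -11.14 and *Fgfr3* at -11.04. The first was low in all 3 genes, while the second was low in neither *Cdh2* nor *Fgfr3*. Mouse 2399 (P+eMSC, 6 weeks) had a difference of -0.93, and mouse 2350 (P+eMSC, 1 week) one of -0.83. Their *Fgfr3* levels of -12.88 and -12.78 were nearly equal. Mouse 2354 (sham, 1 week) had a difference of -0.43, mouse 2210 (P+eMSC, 6 weeks) -0.29, mouse 2346 (sham, 6 weeks) -0.28 and mouse 2277 (sham, 6 weeks) -0.14. Mouse 133 (P, 1 week) had a difference of 0.22 and mouse 2268 (P, 1 week) one of 1.22.

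*Arg1*, a gene close to *Cdh1* over all mice, spread widely among these 10 mice. It ran from -19.73 in mouse 2210 and -17.50 in mouse 2277 to -9.61 in mouse 2268 and -8.77 in mouse 2269. The within-group SD of *Arg1*, 3.10, stood next to that of *Cdh1* in width, in 4th place of the 54 genes.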
